A study of Homo sapiens with 10 samples.

Results

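The regions described here are the widest stretches of H3K27 acetylation in immortalized human astrocytes before induction of IDH1-R132H. They were chosen by the measured length of the islands, as those of at least 20 kb on chromosomes 1 to 22 in the H3K27ac list from cells without doxycycline (noDox), and they are called domains below. The rule took 1321 of the 50960 islands of that list, or 2.59%. An island is a stretch of windows over which the antibody library as a whole exceeded a control library, and the authors called the islands separately in each library. The lists lie on a 200 bp grid and hold no gap under 800 bp. An island may therefore include windows that do not themselves exceed the control. The 9 lists of the series hold 771215 islands on the same chromosomes.

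The cells are IHA, a fetal human astrocyte line immortalised with SV40, which carries IDH1-R132H under doxycycline control. IDH1-R132H is the glioma-associated form of isocitrate dehydrogenase 1 and makes 2-hydroxyglutarate. The noDox cells are labelled WT IDH1, and the 2d-Dox and 7d-Dox cells, given doxycycline at 1 µg/ml for 2 or 7 days, are labelled IDH1-R132H. H3K27ac, H3K9ac and H4K16ac were profiled by CUT&RUN, in which an antibody brings a nuclease to chromatin so that the cut fragments leave the cell and can be sequenced, with 200000 cells per reaction. Each mark and time has 1 library, so there is no replicate error, no test between conditions and no p-value. The control was an HRP library from noDox cells, made with the secondary antibody only, and it served all 9 antibody libraries. No cells received doxycycline without IDH1-R132H, so the drug, time in culture and the enzyme cannot be told apart. The files name no gene, so the astrocyte label was not set against marker genes.

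Acetylation of lysine 27 on histone H3 is laid down mainly by the coactivators p300 and CBP and marks active promoters and enhancers. Where many active elements lie side by side the mark forms long continuous blocks, often called super-enhancers or stretch enhancers, which tend to lie near genes that define a cell's identity. H3K9ac, placed by GCN5 and PCAF among others, is found chiefly at active promoters and also at enhancers. H4K16ac, placed by MOF, loosens contacts between nucleosomes and spreads more widely over transcribed chromatin.

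The libraries differed in size, and the order over time differed between the marks. Relative to the HRP library, the size was 3.98, 3.15 and 1.49 for H3K27ac at noDox, 2d-Dox and 7d-Dox. It was 3.05, 4.17 and 4.88 for H3K9ac, and 2.53, 3.08 and 7.88 for H4K16ac. Reads in islands ranged from 4192346 (H4K16ac noDox) to 18602277 (H4K16ac 7d-Dox). The called lengths below were not corrected for depth, whose part in each difference was not tested. Intervals given with ratios are exact Clopper-Pearson intervals at 95%. They cover counting error only, and without molecular identifiers the reads need not be separate molecules.

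The domains spanned 39.8 Mb, which is 13.2% of the H3K27ac noDox list and 1.38% of the autosomes, and held 18.3% of that list's reads. Their median length was 26.2 kb, with quartiles of 22.4 and 33.0 kb. Of the 1321, 432 reached 30 kb, 81 reached 50 kb and 7 reached 100 kb. H3K27ac reads per domain ranged from 375 to 14903 with a median of 1500, and HRP reads ranged from 16 to 595 with a median of 59. The authors' fold over the control had a median of 6.47 and a range of 1.13 to 20.9. These values belong to the library that chose the domains and are descriptive. At the threshold, 30 domains measured 20.0 kb with a median of 1079 reads, and 37 islands measured 19.8 kb with a median of 986 reads and were left out.

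The domains were unevenly spread and often had close neighbours. Chromosome 17 held 94 of them, or 11.6 per 10 Mb, against 0.434 per 10 Mb on chromosome 13, which held 5. The bands with the most were 3p21.31 with 15, 17p11.2 with 13 and 1q32.1 with 12. HRP reads over the domains were also densest on chromosome 17, at 2.58 per kb against 2.22 over all domains, and the part of control reads in that count was not tested. Another H3K27ac noDox island lay within 2 kb of 61.8% of the domains, of 48.9% of islands of 10 to 20 kb and of 28.1% of islands of 1 to 5 kb. With neighbours within 12.5 kb joined, 275 domains fell into 128 groups. The group with most members held 5 domains at 8q24.21, chr8:131197001-131384600 on hg19. The group that includes the widest domain held 3 domains over 229.6 kb at 2p22.2, chr2:36578001-36807600. Light Giemsa bands, the gene-rich stripes of stained chromosomes, held 60.0% of the domains and 54.5% of the islands of 1 to 5 kb.

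Before induction, H3K9ac covered most of the domain length and H4K16ac covered a smaller part of it. H3K9ac islands lay over 66.1% of the summed domain length and H4K16ac islands over 27.9%. Per domain, the median share was 66.4% for H3K9ac, with quartiles of 55.1% and 77.4%, and 26.3% for H4K16ac, with quartiles of 14.4% and 40.5%. The H3K9ac share was above the H4K16ac share in 1246 of the 1321 domains. H3K9ac was missing from 1 domain and H4K16ac from 66, against 1.24% and 13.98% of islands of 10 to 20 kb and 23.4% and 40.0% of all H3K27ac noDox islands, most of which are far shorter.

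Long H3K27ac islands carried more H3K9ac than short ones, and H4K16ac had no such gradient. The H3K9ac noDox share of the summed length was 47.6% in islands of 1 to 5 kb, 56.0% at 5 to 10 kb, 61.1% at 10 to 20 kb and 66.1% in the domains. For H4K16ac the same classes had 29.4%, 30.7%, 29.1% and 27.9%. H3K27ac itself grew denser with length, from 8.18 to 14.7 reads per kb per unit of relative library size, but the rule used that library. H3K9ac reads on that scale were 3.003, 3.78, 4.31 and 4.75 per kb, and H4K16ac reads were 1.87, 1.94, 1.84 and 1.75. Both take only reads inside islands of the mark, divided by the length of the whole region. HRP reads were 2.00, 2.15, 2.18 and 2.22 per kb in the same classes. They were counted over the whole H3K27ac island, so the 2 kinds of value are not alike. Per kb of its own islands, H4K16ac had 6.28 reads in the domains.

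**Figure D1:**
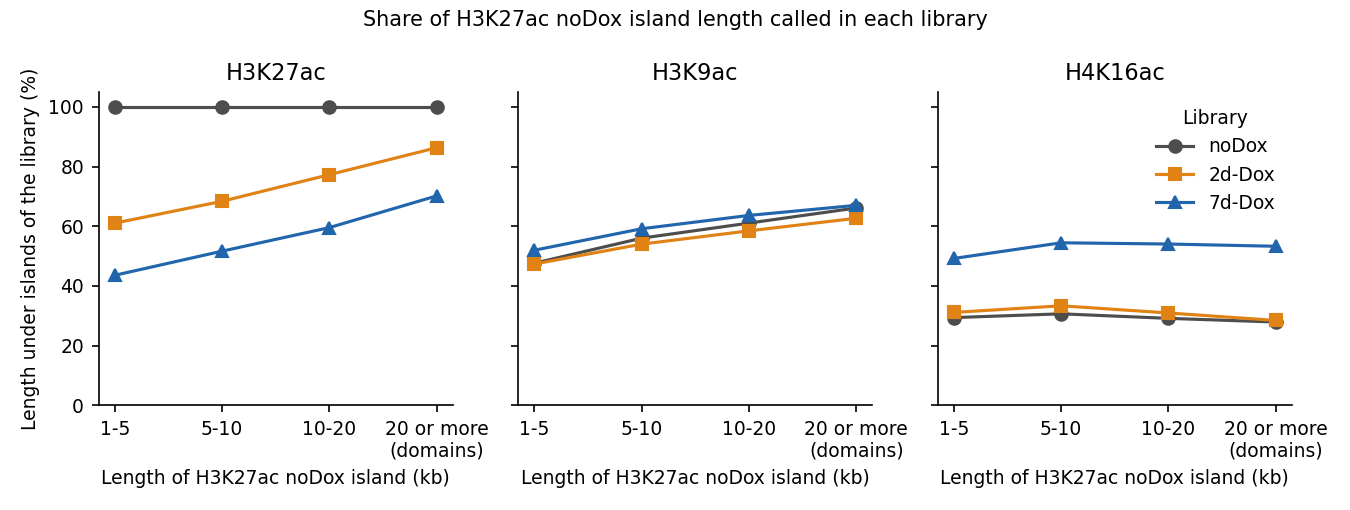
Percentage of the length of H3K27ac noDox islands (y axis) that lies under islands of each library, by length of the H3K27ac noDox island (x axis, kb), in 1 panel per mark with 1 line per library. At noDox H3K9ac climbs from 47.6% to 66.1% with length while H4K16ac stays between 27.9% and 30.7%, and the H4K16ac 7d-Dox line lies highest in its panel, in a library 3.11 times the size of the noDox one.

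The profile across the domains separated the marks in the same way. The middle of the domains (the central 10 of 20 equal bins) was under H3K9ac islands at 68.7% of positions at noDox, and the flanks 4 to 20 kb outside at 37.8%. H4K16ac covered 26.9% of the middle and 27.2% of those flanks. The flanks were not bare chromatin, since other H3K27ac noDox islands covered 49.7% of them, whereas H4K16ac islands covered 9.54% of all autosomal sequence. Averaged over all 20 bins of the domains, edges included, the noDox share was 65.4% for H3K9ac and 28.3% for H4K16ac. The ratio of this inside share to that of the same flanks was 1.73, 1.65 and 1.59 for H3K9ac at noDox, 2d-Dox and 7d-Dox. For H4K16ac it was 1.04, 1.00 and 1.01, so its level of calling was nearly the same inside and outside at each time, including 7d-Dox, where both stood near 53%. Just inside the ends, in the 3 bins that follow the outermost one, H4K16ac stood slightly higher, at 31.0%, 31.8% and 56.0% at the 3 times, and in the first 2 kb outside it stood lower, at 18.9%, 19.4% and 43.4%.

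**Figure D2:**
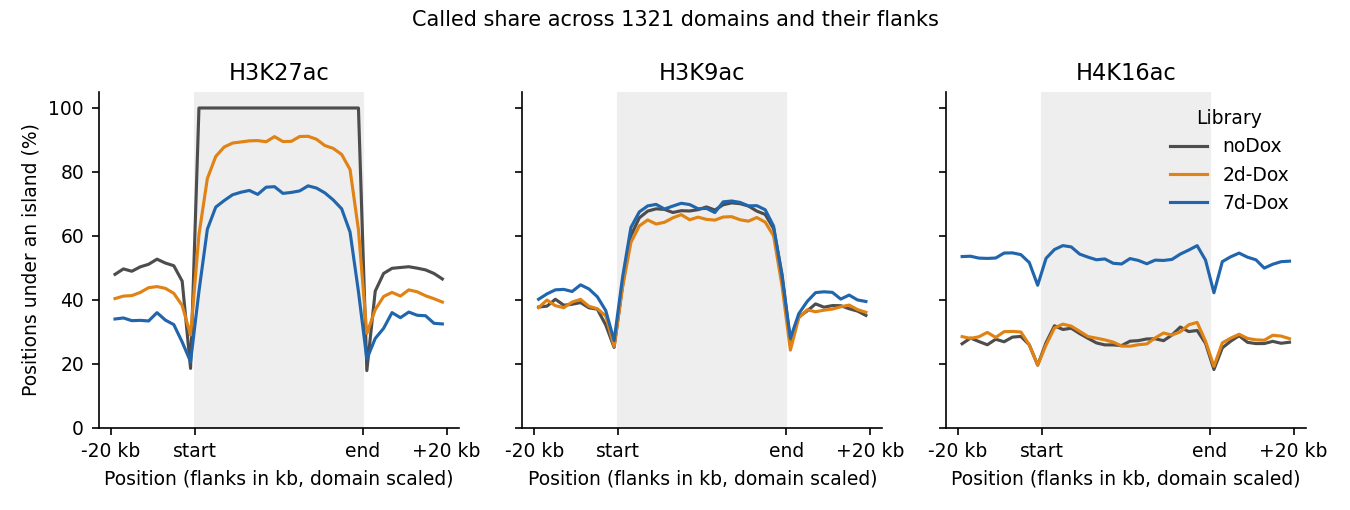
Percentage of positions under an island (y axis) across the 1321 domains, each scaled to the grey span in 20 bins, and in 2 kb bins over 20 kb on either side, with 1 line per library. H3K9ac forms a plateau of 68.7% in the middle at noDox above flanks of 37.8%, and H4K16ac has 26.9% and 27.2% there, with a shoulder of 31.0% just inside the borders and a dip to 18.9% just outside.

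H3K27ac in the later libraries was called less at the domain ends than in the middle. At 2d-Dox the outermost bins were covered at 61.2% and the middle at 90.1%, and at 7d-Dox at 42.7% and 74.3%. The rule fixed the ends from the noDox library, so a lower share there at other times is partly built in. Islands of the later lists also ran past the ends. Of the 2642 domain ends, an H3K27ac island crossed 34.1% at 2d-Dox and 22.9% at 7d-Dox, an H3K9ac island 27.02% at noDox, and an H4K16ac island 18.02% at noDox and 42.4% at 7d-Dox.

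Within the domains the marks overlapped unevenly. At noDox, 21.8% of the domain sequence lay under both H3K9ac and H4K16ac islands, 44.4% under H3K9ac only, 6.16% under H4K16ac only and 27.7% under neither. H4K16ac covered 32.9% of the sequence under H3K9ac islands and 18.2% of the rest. At 7d-Dox both marks covered 40.2% and neither covered 19.8%. H3K9ac noDox islands covered 74.8% of the sequence where H3K27ac was still called at 7d-Dox and 45.7% of the sequence where it was not. H4K16ac noDox islands covered 30.1% and 22.8% of the same 2 parts, and H4K16ac 7d-Dox islands 53.2% and 53.4%.

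For both marks, sequence called at noDox was called more often again at 7d-Dox than the rest of the domain sequence was. H3K9ac 7d-Dox islands covered 79.9% of the sequence under H3K9ac noDox islands and 41.9% of the rest. H4K16ac 7d-Dox islands covered 75.7% of the sequence under H4K16ac noDox islands and 44.6% of the rest. All 3 H3K9ac lists covered 43.6% of the domain sequence and none covered 14.4%, where the single lists covered 62.7% to 67.0%. All 3 H4K16ac lists covered 11.3% and none covered 35.4%, where the single lists covered 27.9% to 53.3%, so these shares differ between the marks with the length each mark covers. Across the 1321 domains, Spearman's rho between the scaled levels of 2 lists was 0.80 to 0.86 for H3K9ac and 0.57 to 0.71 for H4K16ac. It was 0.55 to 0.64 between H3K27ac (2d-Dox or 7d-Dox) and H3K9ac, and -0.20 to 0.06 between H3K27ac and H4K16ac. These correlations are descriptions: the domains share libraries and the HRP control, and H4K16ac has the fewest reads per domain at noDox, with a median of 111 against 382 for H3K9ac.

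H3K9ac over the domains was slightly lower after doxycycline, by less than the spread among the domains. Scaled by relative library size, the domains' summed level was 4.75 reads per kb at noDox, 4.33 at 2d-Dox and 4.32 at 7d-Dox. The median log2 ratio per domain was -0.14 at 2d-Dox (SD among 1319 domains 0.35) and -0.14 at 7d-Dox (SD 0.35, 1320 domains), and it was -0.05 and -0.06 over all H3K27ac noDox islands. The level was highest at noDox in 759 of the 1321 domains, a count that was not made over all islands. The ratio was below 0 in 68.9% and 68.0% of the domains compared at 2d-Dox and 7d-Dox. Over all islands compared it was below 0 in 55.1% and 55.5%. At 2d-Dox, 98 domains (7.43%) lay past the 1.5-fold line on the lower side and 33 (2.50%) on the higher side, where 15% and 10.9% of all H3K27ac noDox islands that could be compared passed the same folds. At 7d-Dox, 117 (8.86%) were lower and 27 (2.05%) higher, where 13.5% and 11% of all islands did so. The shares in the domains were thus below the background, and all islands hold far fewer reads, with a median of 43 at noDox. Centred on the median of all islands of 1 kb or more, the counts were 75 lower and 43 higher at 2d-Dox, and 78 and 41 at 7d-Dox. The share of domain length under H3K9ac islands was 66.1%, 62.7% and 67.0% at the 3 times, in libraries that grew in size.

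H4K16ac over the domains was lower at 2d-Dox, and its direction at 7d-Dox depended on the scaling. The summed level was 1.75 reads per kb at noDox, 1.51 at 2d-Dox and 2.20 at 7d-Dox. At 2d-Dox the median log2 ratio was -0.20 over 1129 domains (SD 1.00). It was 0.04 over the 12767 H3K27ac noDox islands that could be compared and -0.05 over those of 10 to 20 kb. The log2 ratio of summed reads, taken without that filter, was -0.21 in the domains and -0.14 over all islands. In counts at 2d-Dox, 377 domains (33.4%) were at least 1.5-fold lower and 224 (19.8%) higher, where 24.7% and 26.6% of all islands were. Among islands of 10 to 20 kb, 29.4% were lower and 26.2% higher. At 7d-Dox the median log2 ratio was 0.32 over 1221 domains (SD 0.86), against 0.11 over all islands and 0.28 over islands of 10 to 20 kb. With each library scaled by its reads in islands it was -0.19, and with HRP reads subtracted it was -0.09. In counts, 429 domains (35.1%) were at least 1.5-fold higher and 119 (9.75%) lower, where 26.9% and 12.5% of all islands were. Among islands of 10 to 20 kb the shares were 34.96% and 12.99%. Scaling by reads in islands gave 217 domains higher and 330 lower. Subtracting HRP reads gave 256 higher and 266 lower. Scaling by reads in islands lowers each H4K16ac 7d-Dox log2 ratio by 0.51, so a value named below that lies between 0 and 0.51 changes sign under it and a negative one moves further from 0.

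The H4K16ac 7d-Dox library combined wide calls with thin ones. H4K16ac islands covered 27.9%, 28.4% and 53.3% of the domain length at noDox, 2d-Dox and 7d-Dox, while reads per kb of island per unit of relative size were 6.28, 5.32 and 4.12. The HRP library had 2.22 reads per kb over the same domains on that scale. The number of domains with at least 50% of their length under H4K16ac islands was 165, 213 and 750. Islands of at least 20 kb numbered 18, 180 and 3415 in the 3 H4K16ac lists, and of the 3415 at 7d-Dox 232 (6.79%) touched a domain. Of the 153 H3K27ac islands of that length at 7d-Dox, 149 did so, and of the 602 at 2d-Dox, 525. The larger size of the 7d-Dox library, 3.11 times the noDox one, goes with these values, and its part was not tested.

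**Figure D3:**
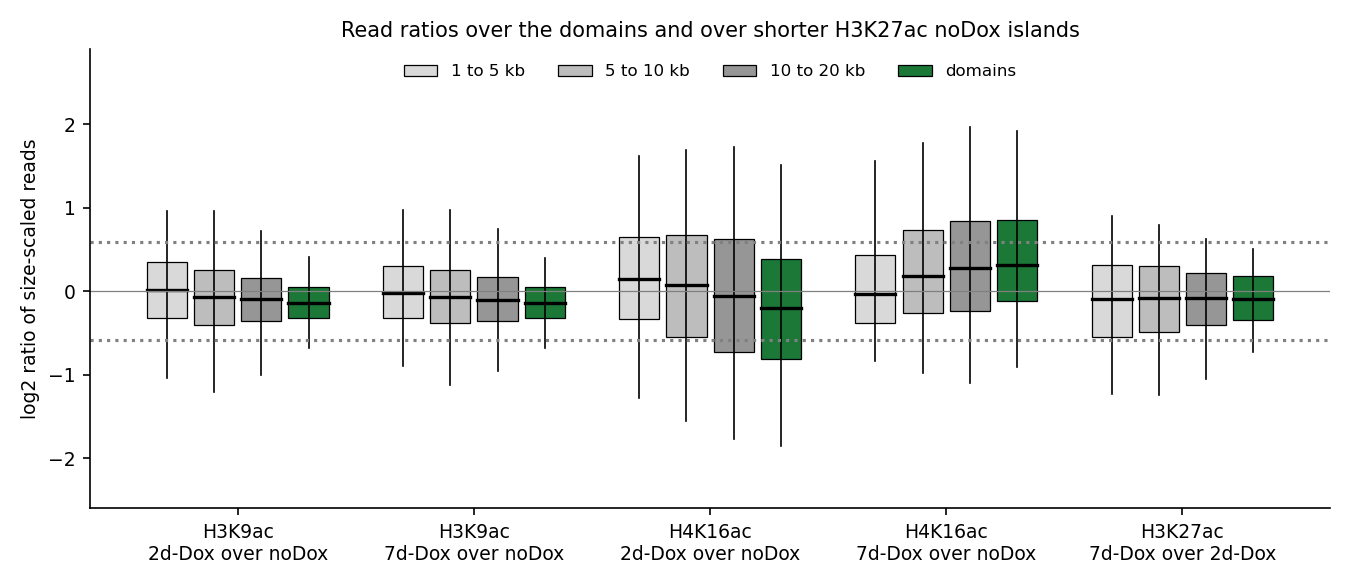
Log2 ratio of reads scaled by relative library size (y axis) for 5 comparisons, over H3K27ac noDox islands of 3 shorter length classes (grey) and over the domains (green). Boxes span the quartiles, thick lines are medians, thin lines run from the 5th to the 95th percentile over regions, and dotted lines mark 1.5-fold. The domain medians are -0.14, -0.14, -0.20, 0.32 and -0.09, and the H4K16ac 7d-Dox median becomes -0.19 when libraries are scaled by their reads in islands.

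H3K27ac at 7d-Dox and 2d-Dox, the libraries that did not choose the domains, differed little in median scaled reads per domain. The median log2 ratio of 7d-Dox over 2d-Dox was -0.09 over 1321 domains (SD 0.39), and -0.08 over all H3K27ac noDox islands. At least 1.5-fold lower were 116 domains (8.78%) and higher 33 (2.50%), where 20.4% and 10.4% of all islands were. Scaling by reads in islands gave 160 lower and 15 higher, and centring on all islands 85 and 71. The domain length under H3K27ac islands was 86.3% at 2d-Dox and 70.2% at 7d-Dox, as the library size went from 3.15 to 1.49, and the mean number of islands per domain was 2.44 and 3.80. Against noDox, which chose the domains, the median log2 ratios were -0.12 at 2d-Dox and -0.21 at 7d-Dox. There 14 and 167 domains were at least 1.5-fold lower (backgrounds 21.8% and 30.9%) and 0 and 2 higher (backgrounds 0.793% and 2.5%). Centred on all islands, these medians were 0.15 and 0.11, and the splits were 2 lower and 3 higher, and 52 and 64. All these ratios count only reads in called islands, and the called length also fell. Per kb of called island, the log2 ratio of summed reads was above 0, at 0.10 and 0.36 over noDox. It was 0.26 for 7d-Dox over 2d-Dox. Over all H3K27ac noDox islands the same 3 values were 0.24, 0.60 and 0.36. No domain lost H3K27ac entirely: the lowest share called was 21.6% at 2d-Dox and 7.95% at 7d-Dox. Islands of 10 to 20 kb with no H3K27ac called were also rare, at 0.222% and 0.813%, against 12.02% and 20.4% of all islands.

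Few domains passed a 2-fold line outside H4K16ac. At 2-fold, H3K9ac had 11 domains lower and 8 higher at 2d-Dox (backgrounds 6.14% and 4.09%) and 23 and 5 at 7d-Dox (4.93% and 4.15%). H4K16ac had 214 lower and 118 higher at 2d-Dox (13.9% and 15.2%) and 53 and 246 at 7d-Dox (3.98% and 15.3%). H3K27ac had 23 lower and 1 higher at 7d-Dox over 2d-Dox (8.35% and 2.49%). Over noDox it had 2 lower and 0 higher at 2d-Dox (6.76% and 0.253%) and 38 and 0 at 7d-Dox (13.5% and 0.308%), and these last values describe the library that set the rule. For H3K9ac and H3K27ac each of these counts was a smaller share of the domains compared than its background.

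The 10 widest domains ranged from 94.2 to 154.4 kb. Each kept H3K27ac over at least 81.0% of its length at 2d-Dox and 65.0% at 7d-Dox. H3K9ac covered 66.9% to 95.3% of them at noDox, a narrow range compared with H4K16ac, which covered 6.30% to 69.1%. The H3K9ac log2 ratio was below 0 in 9 of the 10 at 2d-Dox and in 9 at 7d-Dox, and the counting interval lay below 0 in 8 and 7. Of all domains compared, 68.9% and 68.0% were below 0, and of all H3K27ac noDox islands 55.1% and 55.5%. H4K16ac was lower in 5 and higher in 5 at 2d-Dox, where 58.6% of all domains compared and 48.2% of all islands were lower.

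**Figure D4:**
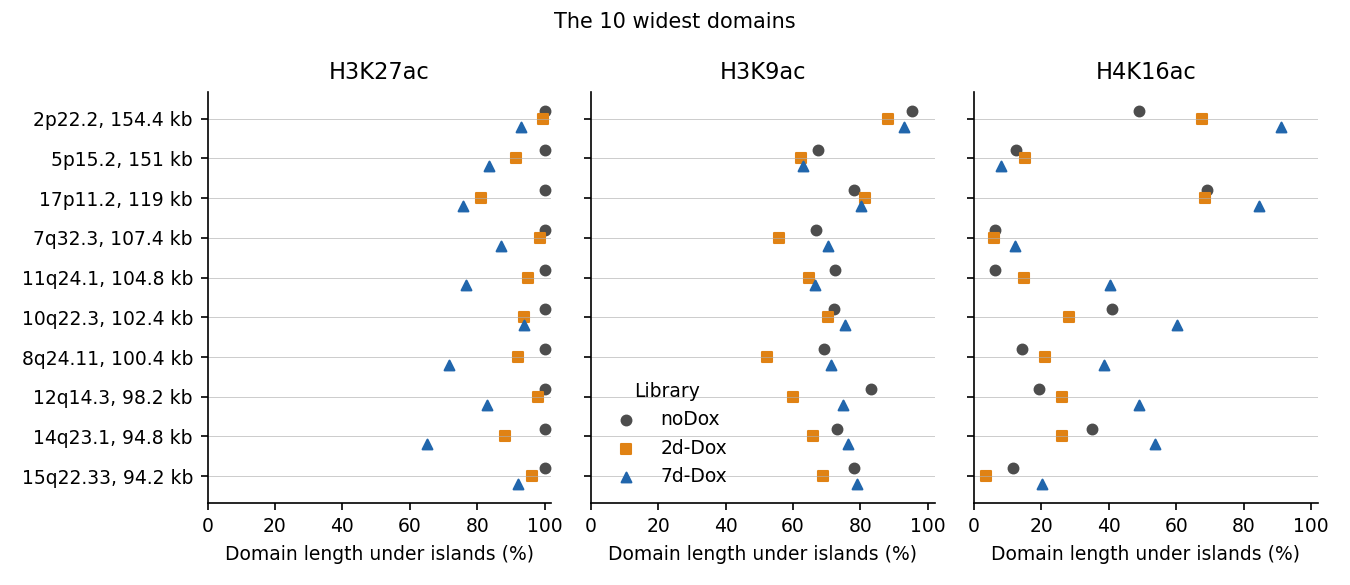
Percentage of domain length under islands (x axis) for the 10 widest domains (y axis, band and length), in 1 panel per mark with 1 symbol per library. H3K9ac lies between 52.2% and 95.3% throughout, while H4K16ac at noDox runs from 6.30% at 11q24.1 to 69.1% at 17p11.2.

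The widest domain lay at 2p22.2, chr2:36578001-36732400, and was 154.4 kb long. Its H3K27ac reads were 14903, 11745 and 4601 at noDox, 2d-Dox and 7d-Dox, over 100%, 99.5% and 93.0% of its length. Its H3K9ac reads were 3877, 4783 and 5439, over 95.3%, 88.1% and 93.0%. Its H4K16ac reads were 1326, 1808 and 5597, over 49.0%, 67.6% and 91.2%. H3K9ac thus filled the domain at each time, with scaled levels of 8.24, 7.42 and 7.21 reads per kb. H4K16ac was split into 22 islands at noDox and 7 at 7d-Dox, with log2 ratios of 0.16 (0.06 to 0.27) and 0.44 (0.35 to 0.53) over noDox, the second of which is below 0 under the scaling by reads in islands. The domain had 3.85 HRP reads per kb, above the 2.22 of all domains. The next domain, chr2:36733601-36760600, began 1.2 kb beyond its end and had the largest H4K16ac noDox share of all domains, 96.3%. That neighbour held 475, 585 and 1463 H4K16ac reads, and its scaled levels of 6.95, 7.03 and 6.88 per kb were nearly equal at the 3 times under the relative library sizes. Scaled by reads in islands, its 7d-Dox log2 ratio over noDox was -0.53 in place of -0.015.

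**Figure D5:**
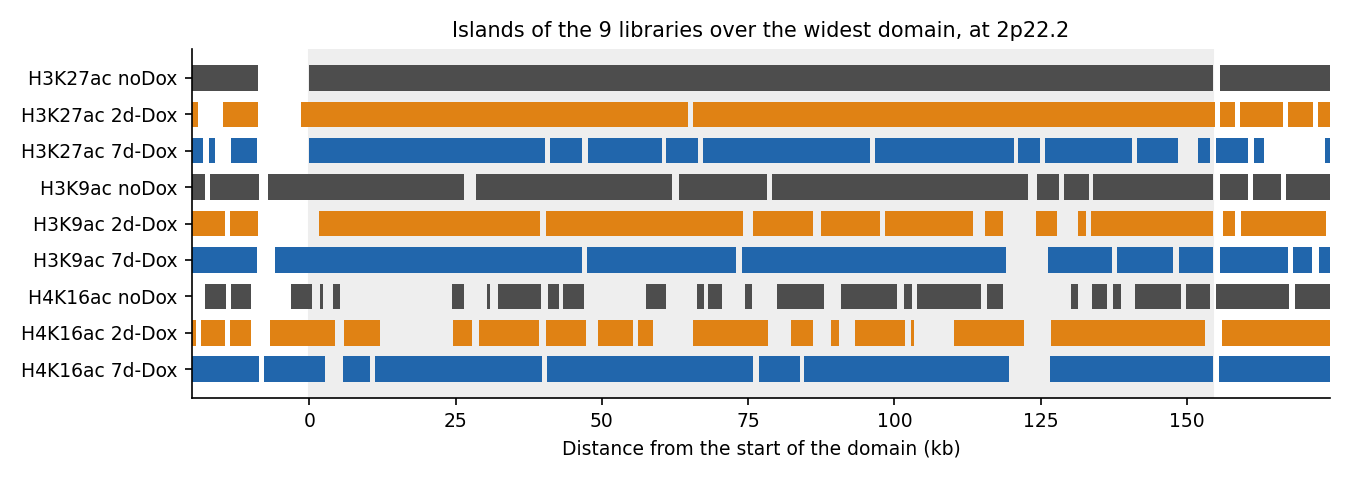
Islands of the 9 libraries (rows) over the widest domain and 20 kb on each side, by distance from the domain's start (x axis, kb), with the domain shaded. H3K27ac at noDox is a continuous island of 154.4 kb, H3K9ac is nearly continuous in its 3 lists, and H4K16ac goes from 22 islands at noDox to 7 at 7d-Dox.

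The second widest domain had little H4K16ac at any time. It spanned 151.0 kb at 5p15.2, chr5:14138201-14289200, with H3K27ac reads of 11067, 8275 and 3478. H4K16ac reads were 243, 318 and 383 over 12.6%, 15.1% and 8.08% of its length, and H3K9ac reads were 2230, 2619 and 2769 over 67.3%, 62.3% and 63.0%. The H4K16ac log2 ratio was 0.10 (-0.14 to 0.35) at 2d-Dox and -0.98 (-1.22 to -0.74) at 7d-Dox. The scaled H4K16ac levels were 0.635, 0.683 and 0.322 reads per kb, so the library with the most reads gave the lowest value here.

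The third, 119.0 kb at 17p11.2, chr17:16921401-17040400, had the largest H4K16ac share of the 10 before induction. H4K16ac covered 69.1%, 68.6% and 84.5% of it with 1574, 1612 and 4960 reads. H3K9ac covered 78.2%, 81.3% and 80.2% with 1867, 2806 and 3021 reads. H3K27ac was thin, with 4358 reads at noDox and an authors' fold of 2.81, and HRP reads were dense at 3.28 per kb. It was the only domain of the 10 with H3K9ac ratios above 0, at 0.14 (0.05 to 0.22) and 0.01 (-0.07 to 0.10).

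Of the other 7, the domain at 11q24.1, chr11:121982801-122087600, had the largest H4K16ac ratios. Its H4K16ac reads were 90, 251 and 1249 over 6.30%, 14.7% and 40.3% of 104.8 kb, with log2 ratios of 1.20 (0.84 to 1.56) and 2.16 (1.85 to 2.48). H3K27ac there went the other way at 7d-Dox, with a log2 ratio of -0.48 (-0.55 to -0.41) over 2d-Dox. At 8q24.11, chr8:118976001-119076400, H4K16ac reads were 187, 310 and 1179, with ratios of 0.44 and 1.02, and H3K9ac covered 69.1%, 52.2% and 71.3%. At 12q14.3, chr12:66209601-66307800, H4K16ac reads were 296, 380 and 1565, with ratios of 0.08 and 0.76, and H3K9ac covered 83.1%, 59.9% and 74.9%. Both domains thus had their lowest H3K9ac share at 2d-Dox, as did the other widest domains except that at 17p11.2.

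In 3 other wide domains the scaled H4K16ac level was lowest at 2d-Dox, while 7d-Dox lay closer to noDox. At 15q22.33, chr15:67353201-67447400, H4K16ac reads were 164, 62 and 505, with log2 ratios of -1.69 (-2.13 to -1.26) and -0.02 (-0.27 to 0.25). At 10q22.3, chr10:80824401-80926800, they were 684, 435 and 1988, with ratios of -0.94 (-1.11 to -0.76) and -0.10 (-0.22 to 0.03). The domain at 14q23.1, chr14:61976801-62071600, had 564, 381 and 1532, with ratios of -0.85 (-1.04 to -0.66) and -0.20 (-0.34 to -0.05). Scaled by reads in islands, the 7d-Dox ratios of these 3 were -0.53, -0.61 and -0.71, so how near they lie to noDox depends on the scaling. The domain at 10q22.3 was also denser in H3K27ac at 7d-Dox than at 2d-Dox, with a log2 ratio of 0.56 (0.50 to 0.62). At 7q32.3, chr7:130550001-130657400, H4K16ac covered 6.33%, 5.96% and 12.1% of 107.4 kb, with 101, 96 and 368 reads, while H3K9ac covered 66.9%, 55.9% and 70.4%. Its scaled H4K16ac levels, 0.371, 0.290 and 0.435 reads per kb, were also lowest at 2d-Dox, with a log2 ratio of -0.36 (-0.78 to 0.06). The same held at 17p11.2, chr17:16921401-17040400, with 5.22, 4.39 and 5.29.

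The largest H3K9ac ratios came from domains with few H3K9ac reads at noDox. At 16p13.13, chr16:11214801-11235000, H3K9ac reads were 32, 168 and 182, and the share called was 5.94%, 44.6% and 39.6%. Its log2 ratios were 1.94 (1.39 to 2.53) and 1.83 (1.28 to 2.42), the largest at both times, and its noDox share was also among the 3 lowest. At 22q13.33, chr22:50343601-50364800, the reads were 61, 303 and 157, with ratios of 1.86 and 0.68. The domain at 5p15.2, chr5:14461801-14482200, had 24, 118 and 75 reads, with ratios of 1.85 and 0.96. H3K9ac at 22q13.31, chr22:46492001-46519200, had 91, 256 and 368 reads, with ratios of 1.04 and 1.34, and at 2p25.1, chr2:10574401-10595200, 131, 357 and 501 reads, with ratios of 1.00 and 1.26. All 5 of these domains were under 30 kb.

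The 5 domains with the lowest H3K9ac ratios had H4K16ac noDox shares of 0% to 14.4%, below the domain median of 26.3%. These are picked extremes, and a link between the marks was not tested. In the 66 domains without H4K16ac at noDox, the median scaled H3K9ac level was 3.61 reads per kb at noDox, 3.12 at 2d-Dox and 3.28 at 7d-Dox. In the 165 with an H4K16ac noDox share of 50% or more it was 5.17, 4.94 and 4.89. At 3p13, chr3:73065401-73093200, H3K9ac reads were 220, 69 and 97, over 48.2%, 10.8% and 10.8% of the length. Its log2 ratios of -2.12 (-2.54 to -1.73) and -1.86 (-2.22 to -1.51) were the lowest of all domains, and no H4K16ac island was called there at any time. H3K27ac at 3p13 had a log2 ratio of -0.04 (-0.18 to 0.10) at 2d-Dox and -0.59 (-0.80 to -0.39) at 7d-Dox over noDox. At 12q23.3, chr12:104688401-104713200, H3K9ac reads were 314, 148 and 158, and at 4q21.21, chr4:79471401-79492800, 237, 127 and 170. At 3q21.1, chr3:122211201-122236200, the reads were 350, 357 and 164, a lower level mainly at 7d-Dox, with ratios of -0.43 and -1.77. At 19p13.12, chr19:15389401-15417000, they were 187, 166 and 90, with ratios of -0.62 and -1.73, and H4K16ac was again called at no time.

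The domains with the highest H3K9ac share did not all have dense H3K27ac. H3K9ac noDox islands filled 100% of the domain at 5q13.2, chr5:72918001-72939000, and of that at 17p13.1, chr17:10584601-10607400, and 97.7% of the 52.4 kb domain at 15q26.1, chr15:93423001-93475400. Their scaled H3K9ac levels were 8.09, 6.78 and 8.02 reads per kb, against a median of 4.66 over the domains. The only domain with no H3K9ac island at noDox was at 19p13.3, chr19:2173201-2194800, where H3K9ac reads were 0, 0 and 48. H3K27ac at noDox, in the library that chose the domains, stood at 18.3, 9.93 and 19.2 reads per kb in the 3 domains with the highest H3K9ac share. It stood at 6.02, 7.93 and 6.12 in the 3 with the lowest, at 19p13.3, 5p15.2 and 16p13.13, against a median of 13.9 over the domains.

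The H4K16ac extremes were larger, and several started from a few reads. At 6p12.1, chr6:56605601-56640800, H4K16ac reads were 10, 306 and 467, over 1.70%, 59.7% and 38.6% of 35.2 kb. Its log2 ratios were 4.69 (3.75 to 5.73) and 3.94 (3.02 to 4.98), the largest at both times. H3K27ac there had ratios over noDox of -0.02 (-0.13 to 0.08) at 2d-Dox and -0.75 (-0.91 to -0.59) at 7d-Dox. At 15q23, chr15:69693801-69720000, the H4K16ac reads were 30, 246 and 591, and at 17q24.1, chr17:62607001-62647600, 19, 143 and 230. At 3p14.1, chr3:69120801-69148000, they were 17, 121 and 652, and at 21q11.2, chr21:16355201-16402800, 27, 159 and 660. These 4 domains had log2 ratios of 2.75, 2.63, 2.54 and 2.27 at 2d-Dox and 2.66, 1.96, 3.62 and 2.97 at 7d-Dox. In the same order, their H3K27ac ratios of 7d-Dox over 2d-Dox were 0.004 (-0.18 to 0.18), -0.42 (-0.56 to -0.28), -0.13 (-0.26 to 0.01) and -0.92 (-1.07 to -0.78).

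The lowest H4K16ac ratios at 2d-Dox were not the lowest at 7d-Dox. At 8p21.3, chr8:23172401-23231400, H4K16ac reads were 306, 28 and 780, with ratios of -3.73 (-4.35 to -3.17) and -0.29 (-0.48 to -0.09). At 4q23, chr4:99558001-99583400, they were 105, 10 and 251, with ratios of -3.70 and -0.38. The domain at 1p36.13, chr1:19246601-19285000, had 167, 20 and 959, with ratios of -3.35 and 0.88. In these 3 the 2d-Dox library stood below both others on the scaled level.

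At 7d-Dox the lowest ratios came from domains in which the largest library had fewer reads than the smallest. H4K16ac reads were 167, 110 and 34 at 1p21.3, chr1:94779601-94802000, with a 7d-Dox log2 ratio of -3.95 (-4.51 to -3.40). They were 58, 109 and 16 at 14q23.1, chr14:61927001-61949800, with a ratio of -3.50 (-4.39 to -2.68), and 79, 80 and 25 at 20q13.2, chr20:52497801-52526200, with a ratio of -3.29 (-4.01 to -2.63). H3K9ac over these 3 domains had ratios of 0.02, -0.25 and -0.41 at 7d-Dox. The domain at 14q23.1 lay 27 kb before the 94.8 kb domain of the same band named above.

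Domains sorted by their H4K16ac noDox share had similar H3K27ac levels, lowest at each time in those without H4K16ac at noDox. The share was 0 in 66 domains, under 10% in 148, 10% to under 50% in 942 and at least 50% in 165. The median scaled H3K27ac level at noDox, in the library that chose the domains, was 12.7, 14.2, 13.9 and 13.97 reads per kb in these classes. It was 11.9, 13.2, 12.9 and 12.5 at 2d-Dox and 10.8, 12.3, 12.1 and 12.7 at 7d-Dox. The median H3K9ac noDox share was 56.3%, 62.1%, 66.7% and 72.2%. HRP reads were 2.14, 2.17, 2.19 and 2.24 per kb. H4K16ac was called at all 3 times in 1158 domains and at no time in 14, among them the domains at 3p13, 19p13.12 and 1p36.23, chr1:8914201-8941800. Of the 66 without it at noDox, 26 had none at 2d-Dox and 18 none at 7d-Dox. The domain at 1p36.33, chr1:2160201-2183000, had 0, 0 and 371 H4K16ac reads, and that at 1p35.3, chr1:28831601-28854200, 0, 0 and 248.

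The largest differences of H3K27ac between 7d-Dox and 2d-Dox were toward lower values at 7d-Dox. At 3q29, chr3:196896801-196927000, H3K27ac reads were 621, 450 and 35, with a log2 ratio of -2.61 (-3.15 to -2.11), and H4K16ac reads were 61, 126 and 658. At 4q33, chr4:170091201-170111200, H3K27ac reads were 375, 212 and 20, with a ratio of -2.33 (-3.07 to -1.66), and H4K16ac reads were 109, 173 and 663. At 1p22.1, chr1:94644801-94669000, they were 553, 494 and 58, with a ratio of -2.01 (-2.43 to -1.62), and H4K16ac reads were 55, 230 and 626. In each of these 3 the H4K16ac ratio at 7d-Dox over noDox was above 0, at 1.79, 0.97 and 1.87. Their H3K27ac at noDox was thin, at 5.17, 4.71 and 5.74 reads per kb. The ratios furthest above 0 were smaller: 622 and 597 H3K27ac reads at 22q13.31 (ratio 1.02, 0.85 to 1.18), 125 and 118 at 10q11.22 (0.99, 0.62 to 1.37) and 368 and 331 at 9q34.11, chr9:130628401-130649800 (0.92, 0.71 to 1.14). In these domains too the H4K16ac ratio at 7d-Dox over noDox was above 0, at 0.54, 0.31 and 0.38. That ratio was below 0 in 31.9% of all domains compared.

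The domains densest in control reads were at 17p11.2 and 10q11.22. At 17p11.2, chr17:21181801-21204200, HRP reads were 132, or 5.89 per kb, and at chr17:20926401-20949800 of the same band 120, or 5.13 per kb. In the first of them H4K16ac had 237 reads over 54.5% of the length at noDox and no island at 2d-Dox or 7d-Dox, whereas H3K27ac reads were 2267, 1536 and 1081. In the second, H4K16ac reads were 72, 34 and 90. At 10q11.22, chr10:47073401-47096600, HRP reads were 103, or 4.44 per kb, and the authors' fold of 1.13 was the lowest of all domains. H3K27ac reads there were 462, 125 and 118, while H3K9ac covered 62.9%, 86.2% and 95.7% and H4K16ac 65.5%, 71.6% and 100%.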

How the data were processed

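CUT&RUN libraries of 3 histone marks at 3 times were analysed from the authors' island lists, with 1 library per mark and time. The submitters' processing notes name SICER, Bowtie2 2.3.5.1, deepTools, Picard, cutadapt and FastQC, with hg19. How each was set is not given in the sources used here. The deposited lists give, per island, an antibody read count and an HRP read count (raw, not normalised), and the authors' log2 fold, p-value, FDR and score. The deposited log2 fold equals the log2 ratio of the counts less a constant per list, with an HRP count of 0 entered as 0.25, and that constant gave relative library size. It was the main scaling, and the labels name no spike-in. The deposited p-value was not used, nor was the deposited score.

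Reads of islands crossing a domain end were apportioned by length. A ratio was taken where each library had an island and 1 of them reached 50 reads. Positions are hg19, 1-based. Bands came from circlize 0.4.16. The code, in Python 3.11.15, was tested on simulated data. Domains were named by rule: the 10 widest, the 3 largest and 3 lowest ratios per comparison, the 3 highest and lowest H3K9ac and H4K16ac noDox shares, and the 3 densest in HRP reads. The members, lists and rules were chosen with earlier results of these data known. No gene annotation on hg19 was used here.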

Additional observations from a re-analysis of the deposited data

Results flagged for a closer look

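H4K16ac over the domains had opposite signs at the 2 times of doxycycline. The median log2 ratio over noDox was -0.20 at 2d-Dox and 0.32 at 7d-Dox. The difference between the times was not tested, since each has 1 library, and both ratios share the noDox library. The 7d-Dox value was -0.19 when libraries were scaled by their reads in islands and -0.09 with HRP reads subtracted, so the opposite signs held under the relative library sizes and not under those scalings.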

How the results depend on the processing

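No paired analysis was possible because each mark and time has 1 library. Medians kept their direction under each alternative except as follows. Scaled by reads in islands, the H4K16ac 7d-Dox median log2 ratio over noDox was -0.19 in place of 0.32, and with HRP reads subtracted -0.086. The H3K27ac medians over noDox, -0.12 and -0.21, were 0.15 and 0.11 when centred on all islands of 1 kb or more. The scaling by reads in islands shifts every ratio over noDox by 0.51 downward for H4K16ac at 7d-Dox. The cause of these reversals was not tested.

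Other values left the 95% order-statistic interval of the main median. For H3K9ac at 2d-Dox and 7d-Dox over noDox (-0.14 and -0.14), HRP subtraction gave -0.16 and -0.21, centring -0.082 and -0.077, and domains from noDox islands joined across gaps of at most 2 kb -0.10 and -0.11. Scaling by reads in islands gave -0.19 at 7d-Dox, and a length minimum of 30 kb -0.16 at 2d-Dox. For H4K16ac at 2d-Dox (-0.20), HRP subtraction gave -0.30 and scaling by reads in islands -0.27. At 7d-Dox centring gave 0.21, counting all reads of touching islands 0.59 and a 30 kb minimum 0.41. For H3K27ac 7d-Dox over 2d-Dox (-0.09), the values were -0.056 with HRP subtraction, -0.13 with all reads of touching islands, -0.010 with centring, -0.14 at 30 kb and -0.17 with scaling by reads in islands. For H3K27ac over noDox at 2d-Dox and 7d-Dox, these were -0.10 and -0.14 with HRP subtraction, -0.073 and -0.18 with all reads of touching islands, -0.019 and -0.18 with scaling by reads in islands, -0.13 and -0.23 at a 15 kb minimum, and -0.15 and -0.24 with joined noDox islands. At 2d-Dox they were -0.093 with islands whose midpoint lay in the domain and -0.10 at 30 kb.

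Of 140 counts of domains past a fold, 93 stayed within 1.5 times the main count (by share where the domain set changed). Beside those given with the results, the counts that moved were as follows. H3K9ac at least 1.5-fold higher (33 at 2d-Dox, 27 at 7d-Dox) became 105 and 103 with a 15 kb minimum, 3 and 3 with 30 kb, and 51 at 7d-Dox with all reads of touching islands, and lower at 7d-Dox (117) became 176 with HRP subtraction. H4K16ac lower at 7d-Dox (119) became 27 with 30 kb. H3K27ac higher at 7d-Dox over 2d-Dox (33) became 65 with HRP subtraction and 5 with 30 kb. H3K27ac over noDox, higher (0 and 2), became 44 and 14 with touching islands, 14 and 5 with midpoints, 1 and 5 with HRP subtraction, 2 at 2d-Dox with 15 kb and 0 at 7d-Dox with 30 kb. Lower at 2d-Dox (14), it became 5 with reads in islands, 26 with midpoints, 58 with 15 kb, 1 with 30 kb and 81 with joined noDox islands.

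Median shares of domain length called were 87.3% and 70.8% for H3K27ac (2d-Dox, 7d-Dox), 66.4%, 62.9% and 68.0% for H3K9ac and 26.3%, 26.1% and 54.7% for H4K16ac (noDox, 2d-Dox, 7d-Dox). Islands of FDR under 0.001 gave 64.5%, 61.0% and 66.7% for H3K9ac and 22.02%, 22.1% and 50.8% for H4K16ac. Joining islands across gaps of at most 600 bp changed nothing, since the smallest gap in the lists is 800 bp. Joining across gaps of at most 2 kb, chosen after seeing the data, gave 92.6% and 78.6% for H3K27ac, 74.3%, 71.7% and 75.3% for H3K9ac and 28.8%, 28.2% and 58.8% for H4K16ac. A 15 kb minimum (2733 domains) gave 85.5% and 67.3% for H3K27ac and 61.8% for H3K9ac at 2d-Dox. A 30 kb minimum (432) gave 90.3% and 74.0% for H3K27ac, 68.4% and 70.5% for H3K9ac at noDox and 7d-Dox, and 24.7% for H4K16ac at noDox. Joined noDox islands (2670) gave 76.8% and 58.8% for H3K27ac, 59.8%, 57.2% and 62.2% for H3K9ac and 27.9% for H4K16ac at 2d-Dox.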
